A study of Mus musculus with 12 samples.

Results

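The genes of oxidative phosphorylation were followed in lung tumours, adjacent lung tissue and sorted alveolar type 2 (AT2) cells of mice. Members were the protein-coding genes whose GENCODE M21 symbol begins with Nduf, Sdha, Sdhb, Sdhc, Sdhd, Uqcr, Cox4, Cox5, Cox6, Cox7, Cox8, Atp5 or mt-, and pseudogene symbols with -ps were left out. The rule found 111 members among the 56608 gene identifiers in the deposited tables. They carry 110 symbols, because Atp5o has a second identifier that was listed at 0 in every library. The mitochondrial genome encodes 13 of them and the nuclear genome 98. By role, 97 are subunits, 12 are assembly factors of complexes I and II, 1 is the supercomplex factor Cox7a2l and 1 is the coupling factor Atp5s. The nuclear members fall to complex I (44), complex II (8), complex III (8), complex IV (20, with Ndufa4, Ndufa4l2 and Cox7a2l) and complex V (18).

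Oxidative phosphorylation is the pathway by which mitochondria make most of a cell's ATP. Complexes I and II pass electrons from NADH and succinate to ubiquinone, complex III passes them to cytochrome c and complex IV to oxygen, while complexes I, III and IV pump protons that complex V, the ATP synthase, lets back to make ATP. Complex II is wholly nuclear encoded, and the other complexes combine nuclear subunits with a few made inside the mitochondrion from its own genome. Several nuclear subunits of complex IV exist as pairs, 1 used in most tissues and 1 in heart and skeletal muscle, lung or testis. AT2 cells secrete surfactant, renew the alveolar lining and are rich in mitochondria.

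Tumour and adjacent lung libraries came from the same mice, numbered 102, 217 and 224, which were C57BL/6, 18 months old and carried a Med23 knockout in T cells. Both tissues therefore carry the knockout, and no lung tissue of wild-type mice was analysed here. AT2 KO cells were sorted by flow cytometry from C57BL/6 mice 175, 179 and 191 with the same knockout, and AT2 WT cells from wild-type C57BL/6 mice 176, 177 and 190, all 6 months old. The labels do not name the Cre driver or the allele. The knockout is described as one of T cells, and whether AT2 cells are spared was not tested. Over the whole gene, Med23, a Mediator subunit, stood at 42.1 to 46.5 CPM in AT2 KO cells and 34.4 to 46.4 CPM in AT2 WT cells. The lung comparison sets tumour against adjacent tissue, and the AT2 comparison sets knockout against wild-type cells at 6 months.

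Total counts lay between 65163100 and 77951014 in the lung libraries and between 15943084 and 18913242 in those of AT2 cells, all made from poly-A RNA. Levels are CPM, counts scaled to the library size, after TMM scaling within each table, and fold changes are log2 values with their standard error (SE) from edgeR. Of the members, 108 passed the filter on low counts in lung and 105 in AT2 cells. The sorted cells were checked against AT2 markers, and Sftpc, a surfactant protein, stood at 71518 to 73602 CPM in AT2 KO cells and 69684 to 103244 CPM in AT2 WT cells. Both libraries of mouse 217 held relatively more counts on short transcripts than the other lung libraries, with a Spearman correlation across 19954 genes between a gene's deviation and its length of -0.32 in tumour 217 and -0.26 in adjacent 217, against 0.10 to 0.30 in the other 4. Libraries AT2 WT 176 and 177 deviated the same way (-0.17 and -0.28). AT2 WT 190 deviated the other way, at 0.37, and the AT2 KO libraries lay at 0.14 to 0.19. The nuclear members are short, with a median transcript of 809 bases against 2425 over all tested lung genes, so values of these libraries are given wherever a result rests on them.

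In lung, the summed level of the nuclear members was higher in tumour than in adjacent tissue of every mouse. The sums were 7617, 13775 and 6217 CPM in tumours 102, 217 and 224, against 5060, 9766 and 5167 CPM in the adjacent tissues of the same mice. Within each mouse the tumour stood above its own adjacent tissue, but the ranges of the groups overlapped because both tissues of mouse 217 were high. The means were 9203 ± 4021 CPM in tumour and 6664 ± 2687 CPM in adjacent tissue (SD, n = 3 each), a log2 ratio of 0.47. Without tumour 217 that ratio was -0.02, so the difference between group means rests on this library, while the within-mouse log2 ratios were 0.59, 0.50 and 0.27. These ratios were not corrected for transcript length. The correlation of deviation with length was 0.14 in tumour 102 and 0.30 in adjacent 102.

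The mitochondrial-encoded members took 2.76, 6.29 and 2.86% of all counts in tumours 102, 217 and 224, against 3.09, 3.80 and 2.03% in adjacent tissues. Their summed level was 28723, 78059 and 28200 CPM in tumour, against 28502, 37469 and 17555 CPM in adjacent tissue. Mice 217 and 224 were higher in tumour, with log2 ratios of 1.06 and 0.68, and mouse 102 was level at 0.01. The means were 44994 ± 28637 CPM in tumour and 27842 ± 9973 CPM in adjacent tissue (SD, n = 3 each), a log2 ratio of 0.69 that was -0.04 without tumour 217. The ratio of mitochondrial to nuclear counts was 3.77, 5.67 and 4.54 in tumours and 5.63, 3.84 and 3.40 in adjacent tissues, so the groups overlapped and the mice did not share a direction.

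By complex, the nuclear subunits of complexes I, III and V were higher in the tumour of every mouse. Complex I summed to 1817, 4593 and 1646 CPM in tumours 102, 217 and 224, against 1304, 2927 and 1358 CPM in adjacent tissues. Complex III summed to 702, 1356 and 621 CPM in tumours, against 481, 974 and 487 CPM in adjacent tissues. Complex V, with Atp5s counted in, summed to 2918, 3861 and 2330 CPM in tumours, against 1765, 2698 and 1735 CPM in adjacent tissues. Complexes II and IV did not share this order in every mouse. Complex II, succinate dehydrogenase, summed to 542, 495 and 457 CPM in tumours, against 373, 501 and 422 CPM in adjacent tissues. Complex IV, with the supercomplex factor Cox7a2l counted in, summed to 1503, 3240 and 1034 CPM in tumours, against 1020, 2453 and 1049 CPM in adjacent tissues.

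**Figure D1:**
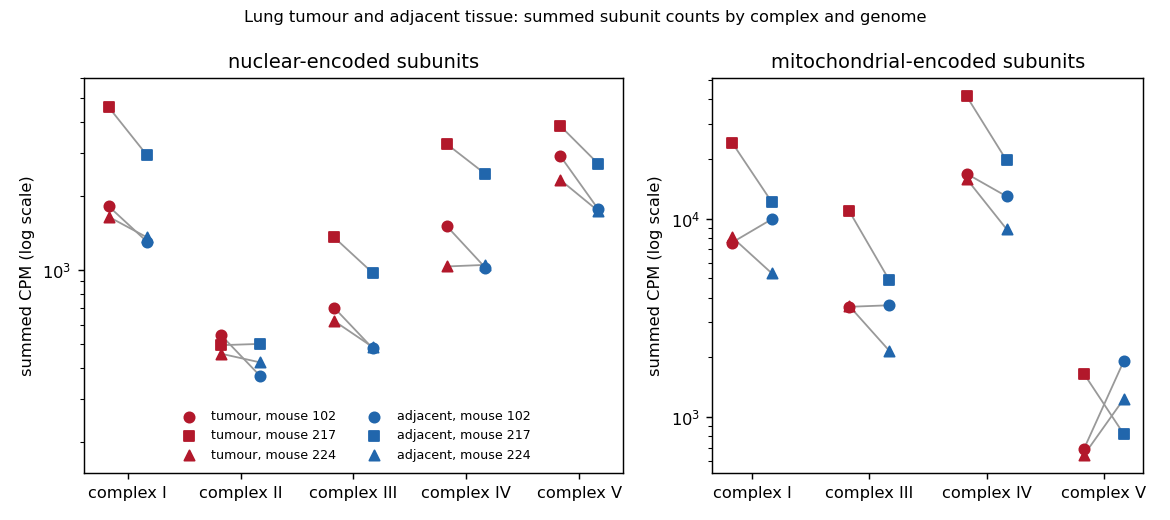
Summed CPM (log axis) of the nuclear-encoded subunits, left, and the mitochondrial-encoded subunits, right, of each complex in tumour (red) and adjacent tissue (blue), with a line joining the tissues of a mouse. Cox7a2l is counted with complex IV and Atp5s with complex V, assembly factors are left out, and each tissue of mouse 217 lies above the same tissue of the other mice except in nuclear complex II (tumour) and mitochondrial complex V (adjacent).

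Among the mitochondrial-encoded subunits, the 3 of complex IV were higher in the tumour of every mouse. They summed to 16847, 41345 and 15857 CPM in tumours 102, 217 and 224, against 12959, 19649 and 8858 CPM in adjacent tissues. The largest part of this was mt-Co1, the catalytic subunit that holds the site of oxygen reduction. It stood at 13161, 28296 and 12151 CPM in tumours, against 9904, 14214 and 6664 CPM in adjacent tissues, and had the highest level per kilobase of all members (11566 ± 5853 CPM per kb in tumour and 6641 ± 2451 CPM per kb in adjacent tissue, SD, n = 3 each). Tumours 102 and 224 fell inside the adjacent range, and tumour 217 lay above every adjacent library. Its fold change was 0.80 ± 0.55 with an adjusted p of 0.455 (edgeR quasi-likelihood test, Benjamini-Hochberg), so the difference did not pass the threshold of 0.05.

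The copper-binding subunit mt-Co2 gave 0.88 ± 0.65 (adjusted p = 0.486) and mt-Co3 0.99 ± 0.62 (adjusted p = 0.410). Cytochrome b, mt-Cytb of complex III, had 3599, 10884 and 3626 CPM in tumours 102, 217 and 224, against 3663, 4902 and 2162 CPM in adjacent tissues, so that mouse 102 was about level (0.76 ± 0.59, adjusted p = 0.519). The 7 mitochondrial subunits of complex I, which form most of its membrane arm, had positive fold changes, between 0.17 for mt-Nd4l and 0.93 for mt-Nd6. In mouse 102 just 1 of these 7 was higher in tumour, in mouse 217 all 7 and in mouse 224 6. Their sum was 7584, 24177 and 8072 CPM in tumours, against 9957, 12097 and 5297 CPM in adjacent tissues.

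The exception was mt-Atp6, a subunit of the proton channel of complex V. It stood at 345, 1069 and 565 CPM in tumours 102, 217 and 224, against 1605, 519 and 1164 CPM in adjacent tissues. Tumour was lower in mice 102 and 224 and higher in mouse 217, and the test gave -0.73 ± 0.56 (adjusted p = 0.511). The other mitochondrial subunit of complex V, mt-Atp8, which overlaps mt-Atp6 in the genome, had 348, 584 and 79.6 CPM in tumours, against 319, 301 and 73.6 CPM in adjacent tissues (0.55 ± 0.76, adjusted p = 0.751). It was higher in the tumour of every mouse.

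Several of the mitochondrial members match a nuclear copy of part of the mitochondrial genome. How far this copy alters their counts was not tested. Chromosome 1 of GRCm38 holds on its minus strand, between positions 24611535 and 24616197, 7 annotated pseudogenes that match mitochondrial members. Gm28661 matches the first 681 of 684 bases of mt-Co2 without a mismatch, Gm28437 783 of 784 bases of mt-Co3, Gm10925 678 of 681 bases of mt-Atp6 and Gm10222 294 of 297 bases of mt-Nd4l. Gm28438 covers 345 of 348 bases of mt-Nd3 with 1 substitution, T3C, counted from 1 at the first base of the gene, with the mitochondrial base first. Gm28439 covers the first 876 of 1378 bases of mt-Nd4, and Gm29216 the last 483 of 1545 bases of mt-Co1 with 1 substitution, A1066T. A read from most of this span therefore cannot be told to come from 1 copy rather than the other. The stretches around the 2 substitutions, and the start of mt-Co2 for comparison, are shown 5′ to 3′ in the direction of the mitochondrial gene, from the GENCODE M21 transcripts on GRCm38, with capitals at the substituted base.
mt-Co1, chrM:6390-6450, plus strand: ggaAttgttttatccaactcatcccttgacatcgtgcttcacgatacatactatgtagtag
Gm29216, chr1:24616128-24616188, minus strand: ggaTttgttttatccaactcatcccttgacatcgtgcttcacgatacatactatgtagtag
mt-Nd3, chrM:9459-9518, plus strand: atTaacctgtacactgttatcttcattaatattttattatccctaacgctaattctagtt
Gm28438, chr1:24613060-24613119, minus strand: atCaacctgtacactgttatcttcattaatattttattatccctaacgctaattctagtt
mt-Co2, chrM:7013-7070, plus strand: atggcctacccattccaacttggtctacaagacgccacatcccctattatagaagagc
Gm28661, chr1:24615508-24615565, minus strand: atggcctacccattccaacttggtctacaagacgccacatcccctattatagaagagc

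In the lung table, 4 of the copies carry nearly the same counts as the mitochondrial genes they match. The level of the copy divided by that of the gene was 0.989 to 0.999 for mt-Co2, 0.995 to 1.0 for mt-Co3, 0.902 to 0.990 for mt-Nd3 and 0.980 to 0.990 for mt-Nd4l over the 6 lung libraries. The copy of mt-Atp6 departed from this. Gm10925 stood at 1597, 5326 and 1927 CPM in tumours 102, 217 and 224, against 1697, 2538 and 1220 CPM in adjacent tissues. It was thus 4.63, 4.98 and 3.41 times the level of mt-Atp6 in tumours, against 1.06, 4.89 and 1.05 times in adjacent tissues. In mouse 224 the copy was higher in tumour while mt-Atp6 was lower, and in mouse 102 the copy was close to level. For mt-Atp6 and Gm10925 added together the levels were 1941, 6395 and 2493 CPM in tumours, against 3302, 3057 and 2384 CPM in adjacent tissues. With the counts of all 7 copies added, the summed mitochondrial log2 ratio of tumour over adjacent was 0.72, and over the 5 genes with no part in the copy it was 0.65, beside 0.69 over the 13 members alone.

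In AT2 cells the genes inside the copied span were almost without counts. The 6 that lie wholly inside it (mt-Co2, mt-Atp8, mt-Atp6, mt-Co3, mt-Nd3 and mt-Nd4l) summed to 99.2, 77.7 and 46.6 CPM in AT2 KO 175, 179 and 191, against 42.1, 126 and 78.5 CPM in AT2 WT 176, 177 and 190. The 5 genes outside it summed to 15139, 14760 and 9565 CPM in AT2 KO cells, against 3894, 22596 and 16214 CPM in AT2 WT cells. The 7 copies summed to 56.6 to 191 CPM in AT2 KO cells and 40.7 to 137 CPM in AT2 WT cells, beside 8437 to 27191 CPM in tumours and 5439 to 12212 CPM in adjacent tissue. The tables thus treat this span differently, and how each handled reads that match several places is not given in the sources used here. Levels of these 6 genes and of mt-Co1 and mt-Nd4 are therefore not set against each other across the tables.

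**Figure D2:**
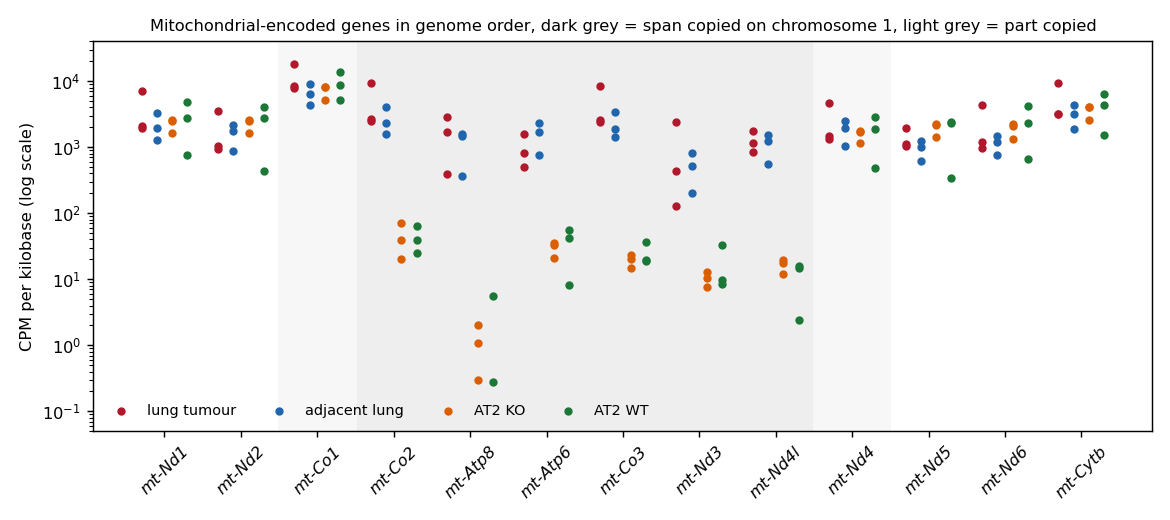
CPM per kilobase (log axis) of the 13 mitochondrial-encoded genes in genome order, with a point for each of the 3 libraries of tumour, adjacent tissue, AT2 KO and AT2 WT cells. In the darker grey span, copied on chromosome 1, the AT2 points lie far below the lung points, while outside both grey spans they overlap or lie near the lung points, and mt-Atp8 in AT2 WT 176 was at 0 and is not drawn on the log axis.

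The test across all lung genes called 0 of the 108 members (edgeR quasi-likelihood test, adjusted p under 0.05), where it called 10.0% of all 19995 genes, 2.86% as higher and 7.18% as lower in tumour. At an unadjusted p under 0.05 it gave 4 members, Cox7a2l, Cox8b, Ndufa4l2 and Cox6a2, against 24.0% of all genes. DESeq2 called these same 4, where it called 18.6% of all genes. The fold change was positive for 94 of the 108 members. The median was 0.40 over the 95 nuclear members and 0.76 over the 13 mitochondrial members, against 0.04 over all genes tested. Without tumour 217 the medians were -0.20 and -0.17, and without both libraries of that mouse 0.32 and 0.09. After a correction for transcript length they were 0.37 over nuclear and 0.60 over mitochondrial members, against 0.13 over all genes.

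Tumour and adjacent tissue of a mouse were paired by animal, and 56 of the 108 members (51.9%) were higher in the tumour of all 3 mice, against 28.2% of all genes. Lower in all 3 were 10 members (9.26%), against 29.3% of all genes. The median within-mouse log2 ratio of the nuclear members was 0.54 in mouse 102, 0.41 in mouse 217 and 0.20 in mouse 224, and that of the mitochondrial members was -0.26, 1.04 and 0.64. With the mouse as a block, the edgeR test called 5 members higher and 0 lower, against 14.9% of all genes, 5.57% higher and 9.34% lower. At an unadjusted p under 0.05 this fit gave 29 members, against 33.1% of all genes. These 5 were Cox7a2l, Ndufa10, Ndufs8, Atp5c1 and Atp5d.

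**Figure D3:**
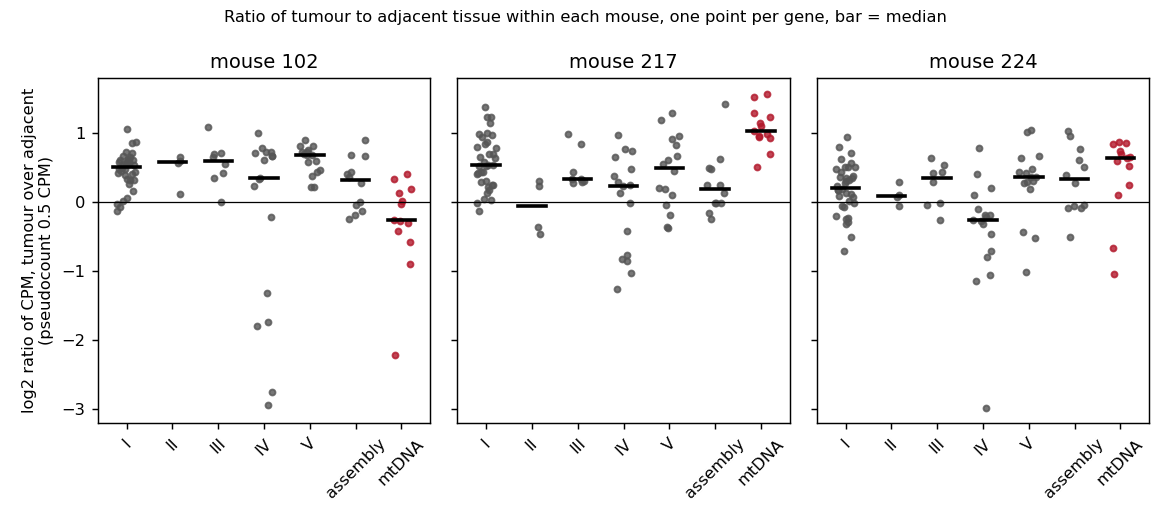
Log2 ratio of CPM in tumour over adjacent tissue within mouse 102, 217 and 224 (pseudocount 0.5 CPM), 1 point per tested gene and a bar at the median, for the nuclear subunits of complexes I to V, the assembly factors and the mitochondrial-encoded genes (mtDNA, red). Nuclear subunits of complexes I, III and V lie mostly above 0 in all 3 mice, a tail of complex IV subunits lies below 0, and the median of the mitochondrial genes lies below 0 in mouse 102 and above it in mice 217 and 224.

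The member called with the mouse as a block, and also by DESeq2 and after a correction for transcript length, was Cox7a2l, the supercomplex factor. DESeq2 called 18.6% of all genes and the fit corrected for length 12.1%. Cox7a2l (ENSMUSG00000024248, chr17:83501918-83517330, minus strand) binds complexes III and IV into supercomplexes, and C57BL/6 mice are known to carry a shortened form of its protein. It stood at 215, 213 and 165 CPM in tumours 102, 217 and 224, against 88.0, 124 and 83.2 CPM in adjacent tissues. Every tumour was above every adjacent library, with within-mouse log2 ratios of 1.29, 0.77 and 0.98. The fold change was 1.0 ± 0.30 with an adjusted p of 0.0815 in the group-only edgeR fit, and 1.02 ± 0.18 with an adjusted p of 0.0295 with the mouse as a block.

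In complex I, 24 of the 36 nuclear subunits (66.7%) were higher in tumour in all 3 mice, beside 28.2% of all genes. A positive fold change was found for 34 of the 36. The median fold change of the 36 was 0.48, and 0 passed the group-only edgeR test. Ndufa10, an accessory subunit of the membrane arm, had 69.0, 191 and 79.6 CPM in tumours 102, 217 and 224, against 44.5, 80.9 and 41.1 CPM in adjacent tissues. The tumour was higher in every mouse, while the groups overlapped, and the change was 1.03 ± 0.48 (adjusted p = 0.254) and 0.94 ± 0.19 with the mouse as a block (adjusted p = 0.0385). Ndufs8, a core subunit that carries iron-sulfur clusters on the way to ubiquinone, had 36.5, 150 and 57.4 CPM in tumours, against 22.2, 63.5 and 34.6 CPM in adjacent tissues. Its fold change was 0.90 ± 0.19 with the mouse as a block (adjusted p = 0.0434) and 1.02 ± 0.60 in the group-only fit (adjusted p = 0.372).

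The 2 nuclear subunits of complex I with a negative fold change, Ndufb8 (-0.06 ± 0.47) and Ndufv1 (-0.04 ± 0.30), were close to 0. Ndufb8 belongs to the membrane arm and Ndufv1 holds the site where NADH is oxidised. Ndufv1 had 35.1, 50.4 and 43.6 CPM in tumours 102, 217 and 224, against 36.6, 55.0 and 40.7 CPM in adjacent tissues, and the groups overlapped. Per kilobase, the nuclear subunit with the highest level in adjacent lung was Ndufa2 (180 ± 151 CPM per kb in tumour and 137 ± 108 CPM per kb in adjacent tissue) and the lowest was Ndufs4 (22.7 ± 8.68 and 17.2 ± 8.03 CPM per kb, SD, n = 3 each). Of the 8 Ndufaf assembly factors of complex I, which help build the complex without staying in it, 6 had a positive fold change. Higher in tumour in all 3 mice were 4 (50.0%), beside 28.2% of all genes. None of the 8 passed the edgeR test in either fit.

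The 4 subunits of complex II had fold changes between 0.13 for Sdhd and 0.35 for Sdhc. Sdha, the flavoprotein that oxidises succinate, had 282, 137 and 191 CPM in tumours 102, 217 and 224, against 190, 175 and 182 CPM in adjacent tissues. Mouse 102 was higher in tumour, mouse 217 lower and mouse 224 about level (0.16 ± 0.34, adjusted p = 0.845). Of the assembly factors, Sdhaf3 was higher in every tumour library than in every adjacent library, at 4.36, 5.82 and 4.77 CPM in tumours against 3.26, 3.99 and 2.06 CPM in adjacent tissues (0.68 ± 0.46, adjusted p = 0.437). Groups that do not overlap in this direction were found for 5 of 108 members, beside 11.6% of all genes, and in the lower direction for 3, beside 18.9%.

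All 8 nuclear subunits of complex III had a positive fold change. Higher in tumour in all 3 mice were 5 (62.5%), beside 28.2% of all genes. Uqcrfs1, the Rieske iron-sulfur protein, had 108, 102 and 94.7 CPM in tumours 102, 217 and 224, against 65.8, 83.9 and 70.1 CPM in adjacent tissues. Uqcrc2, a core protein of the matrix side, had 122, 130 and 112 CPM in tumours, against 83.0, 105 and 76.9 CPM in adjacent tissues. Both genes were higher in every tumour than in every adjacent library. Neither passed the test, at 0.47 ± 0.27 for Uqcrfs1 (adjusted p = 0.350) and 0.46 ± 0.27 for Uqcrc2 (adjusted p = 0.378). These 2 genes did not show the excess of tumour 217 that raised the sum of the complex.

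In complex V, the 16 tested nuclear subunits all had a positive fold change, with a median of 0.52. Higher in tumour in all 3 mice were 10 (62.5%), beside 28.2% of all genes. Atp5c1 and Atp5d encode the gamma and delta subunits of the rotor stalk that couples the proton flow to ATP synthesis. Atp5c1 had 169, 238 and 141 CPM in tumours 102, 217 and 224, against 100, 156 and 69.0 CPM in adjacent tissues (0.76 ± 0.39, adjusted p = 0.30). Atp5d had 133, 381 and 176 CPM in tumours, against 79.7, 167 and 112 CPM in adjacent tissues (0.94 ± 0.48, adjusted p = 0.293). The groups overlapped in both, and the tumour was higher in each mouse. With the mouse as a block Atp5c1 rose by 0.80 ± 0.18 (adjusted p = 0.0452) and Atp5d by 0.86 ± 0.19 (adjusted p = 0.0474).

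The alpha subunit Atp5a1 had 648, 409 and 554 CPM in tumours 102, 217 and 224, against 369, 354 and 408 CPM in adjacent tissues, without overlap (0.51 ± 0.32, adjusted p = 0.402). Subunit c, which forms the turning ring of the synthase, comes as the same mature protein from Atp5g1, Atp5g2 and Atp5g3. Per kilobase these genes averaged 113 CPM per kb (Atp5g1), 322 CPM per kb (Atp5g2) and 177 CPM per kb (Atp5g3) in tumour, against 86.7, 242 and 165 CPM per kb in adjacent tissue. Their fold changes were 0.38 ± 0.54, 0.41 ± 0.38 and 0.10 ± 0.35, and none passed the test. The order Atp5g2, Atp5g3, Atp5g1 was the same in both tissues.

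Of the 17 tested nuclear subunits of complex IV, 10 had a positive and 7 a negative fold change. In all 3 mice 4 (23.5%) were higher and 6 (35.3%) lower in tumour, near the 28.2% and 29.3% of all genes. Among the isoforms of most tissues, Cox4i1, Cox6a1, Cox7a2 and Cox8a were higher in tumour in mice 102 and 217 and lower in mouse 224, and Cox6b1, Cox7b and Ndufa4 were higher in all 3 mice. The muscle and lung isoforms Cox6a2, Cox7a1, Cox8b and Cox4i2 had lower values in tumour in each mouse. None of these isoforms passed the edgeR test in either fit. Cox4i1, Cox6a1 and Cox8a stood at 161 to 546, 134 to 481 and 109 to 365 CPM in tumours, against 133 to 462, 159 to 369 and 123 to 308 CPM in adjacent tissues. Their fold changes were 0.20 ± 0.62, 0.22 ± 0.57 and 0.30 ± 0.55. Cox6b1, the partner of the testis form Cox6b2, had 103, 333 and 79.7 CPM in tumours 102, 217 and 224, against 64.5, 198 and 69.2 CPM in adjacent tissues, with overlap between the groups (0.64 ± 0.66, adjusted p = 0.654).

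Cox6a2 (ENSMUSG00000030785, chr7:128205435-128206387, minus strand) is the form of subunit 6a of heart and skeletal muscle. It had 1.19, 5.92 and 0.802 CPM in tumours 102, 217 and 224, against 12.4, 11.1 and 9.74 CPM in adjacent tissues, so that every tumour was below every adjacent library. The fold change was -2.07 ± 0.77 (adjusted p = 0.143 with edgeR, group only, and 0.0640 with the mouse as a block). Of its 680 exonic bases, 70 are shared with Itgad on the opposite strand, which stood at 0, 0.0637 and 0 CPM in tumours and 0.839, 3.52 and 0.372 CPM in adjacent tissues. Cox8b (ENSMUSG00000025488, chr7:140898945-140900446, minus strand), the form of subunit 8 of muscle and brown fat, was near the limit of detection. It had 0, 4 and 0 counts in tumours, against 98, 63 and 45 counts in adjacent tissues, where a count of 0 allows up to 3 counts per library. The fold change of -5.32 ± 1.40 (adjusted p = 0.0526) rests on those 4 tumour counts.

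Ndufa4l2 (ENSMUSG00000040280, chr10:127514967-127517154, plus strand) is the hypoxia-induced relative of the complex IV subunit Ndufa4. It had 10.0, 15.7 and 11.5 CPM in tumours 102, 217 and 224, against 34.4, 26.8 and 20.3 CPM in adjacent tissues, without overlap (-1.13 ± 0.35, adjusted p = 0.0840). Ndufa4 itself had 62.4, 73.7 and 53.6 CPM in tumours, against 48.8, 67.2 and 30.9 CPM in adjacent tissues (0.37 ± 0.35, adjusted p = 0.614). Cox4i2 (ENSMUSG00000009876, chr2:152754173-152765037, plus strand), the lung form of subunit 4 that responds to oxygen, had 6.05, 29.5 and 14.3 CPM in tumours, against 43.4, 60.8 and 23.5 CPM in adjacent tissues. Tumour was lower in every mouse and the groups overlapped (-1.36 ± 0.60, adjusted p = 0.225). The muscle form Cox7a1 was at 0.423 to 3.10 CPM in tumours and 0.572 to 4.31 CPM in adjacent tissues, and the testis form Cox6b2 at 3.29 to 9.50 CPM in tumours and 4.47 to 9.53 CPM in adjacent tissues. The testis forms Cox7b2 and Cox8c were at or near 0 in all lung libraries, with 8 counts of Cox7b2 in adjacent 102 and 0 counts elsewhere.

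**Figure D4:**
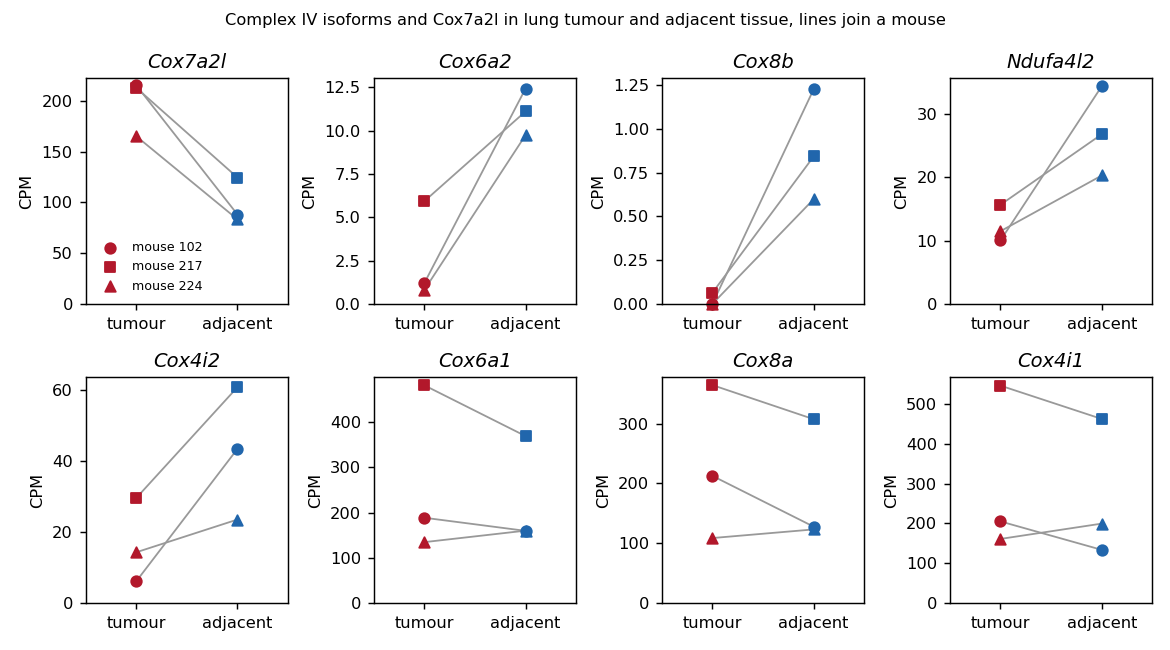
CPM of Cox7a2l and of complex IV isoforms in tumour (left) and adjacent tissue (right), with a line joining the tissues of mouse 102, 217 or 224. Cox7a2l is higher in every tumour than in every adjacent library, Cox6a2, Cox8b and Ndufa4l2 are lower in every tumour, Cox4i2 is lower in tumour within each mouse, and Cox6a1, Cox8a and Cox4i1 do not share a direction across mice.

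Several cell types also differed between the tissues, and their part in these results was not tested. In whole tissue, fewer cells of a type and less RNA per cell cannot be told apart. Markers counted as higher or lower passed the group-only edgeR test (adjusted p under 0.05). That test called 2.86% of all genes higher and 7.18% lower in tumour. The 16 heart muscle markers summed to 7.82, 12.9 and 6.40 CPM in tumours 102, 217 and 224, against 494, 45.1 and 214 CPM in adjacent tissues, with 5 of the 12 tested lower in tumour and Mb, Csrp3, Nppa and Ckmt2 at 0 in all tumours. The 12 endothelial markers summed to 602 to 793 CPM in tumours and 3209 to 5575 CPM in adjacent tissues, with 10 of 12 lower and none at 0. The 8 pericyte markers other than Cox4i2 and Ndufa4l2 summed to 294 to 425 CPM in tumours and 292 to 746 CPM in adjacent tissues, with Rgs5 higher, Gucy1a1 lower and none at 0. The 12 AT2 markers moved the other way, at 80198, 232506 and 101399 CPM in tumours against 23567, 45262 and 31337 CPM in adjacent tissues, with 2 of 12 higher and none at 0. DESeq2 called 8 of these 12 and 10 of the 12 tested heart muscle markers, where it called 18.6% of all genes. With the mouse as a block 7 AT2 markers were called higher and 4 heart muscle markers lower, beside 5.57% and 9.34% of all genes.

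Markers of other airway and immune cells also differed, with calls from the same group-only edgeR test. The 12 ciliated cell markers summed to 10.6, 31.4 and 14.1 CPM in tumours 102, 217 and 224, against 1046, 634 and 557 CPM in adjacent tissues, with 11 of 12 lower and none at 0. The 9 club cell markers summed to 4233, 4149 and 2808 CPM in tumours, against 36794, 39958 and 19646 CPM in adjacent tissues, with 5 of 9 lower and none at 0. In both lists every tumour was below every adjacent library. The 13 macrophage markers summed to 2600, 1900 and 1306 CPM in tumours, against 827, 8975 and 8428 CPM in adjacent tissues, and 0 of 13 passed the edgeR test, 3 had an unadjusted p under 0.05 and DESeq2 called 1. Adjacent 102 held far less of them than the other adjacent libraries. The 12 lymphocyte markers summed to 56.6 to 116 CPM in tumours and 155 to 342 CPM in adjacent tissues, with 3 of 12 lower, while DESeq2 called 7. The 8 brown fat markers other than Cox8b summed to 24.1 to 79.4 CPM in tumours and 16 to 115 CPM in adjacent tissues, with Cidea lower. Adipoq, Elovl3 and Ucp1 were at 0 in all tumours, and none of the 8 was at 0 in all adjacent libraries.

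The factors NRF1 and GABP are known to drive many respiratory chain genes, so the promoters of the nuclear members were searched for the letters they bind. RefSeq promoters of GRCm38.p6 matched 80 of the 97 symbols of the nuclear members, and the 250 bases before the start were searched on both strands. The NRF1 site, the first run of capitals in the Cox6a1 promoter printed here, was found in 5 of them (6.25%), against 0.877% of 27025 genes. The ETS site CCGGAAG, bound by GABP among others, was found in 16 (20.0%), against 7.83% of all genes. The TATA letters TATAAA were found in 6 (7.50%), against 14.3%, and the YY1 letters AAGATGGC in 1 (1.25%), against 1.83%. Of the 14 complex IV members with a promoter, Cox6a1 held the NRF1 and ETS letters, Cox6b1 the ETS letters and Cox7b2 the TATA letters, and the other 11 held none of those searched, Cox8b and its partner Cox8a among them. Cox6a1 is printed as a promoter with both sites and Cox8b as one with neither, with capitals at the NRF1 and ETS letters.
Cox6a1, chr5:115348959-115349208, minus strand: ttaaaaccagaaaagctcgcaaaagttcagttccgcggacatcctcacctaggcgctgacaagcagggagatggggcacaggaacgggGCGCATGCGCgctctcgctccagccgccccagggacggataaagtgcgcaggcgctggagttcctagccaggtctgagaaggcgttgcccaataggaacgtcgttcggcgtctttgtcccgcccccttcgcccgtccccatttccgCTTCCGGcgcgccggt
Cox8b, chr7:140900447-140900696, minus strand: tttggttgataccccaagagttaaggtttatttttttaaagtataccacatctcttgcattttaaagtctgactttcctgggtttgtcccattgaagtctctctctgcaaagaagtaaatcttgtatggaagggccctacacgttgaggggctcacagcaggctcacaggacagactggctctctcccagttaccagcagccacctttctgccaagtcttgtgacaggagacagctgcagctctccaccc

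The promoter of Cox6a1 had a GC content of 62.8% and that of Cox8b 47.2%. Nrf1, which encodes the first of these factors, had 9.06 to 14.6 CPM in tumours and 10.6 to 17.4 CPM in adjacent tissues, and Gabpa 31.8 to 57.9 CPM in tumours and 27.2 to 59.5 CPM in adjacent tissues. Both overlapped between the tissues. A motif match describes the letters and not binding, and Cox7a2l, Ndufa10, Ndufs8, Atp5c1 and Atp5d held none of them.

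Other genes of mitochondrial energy metabolism were read from 8 lists in the same fits. In the group-only edgeR test 0 of their 104 tested genes passed, where 10.0% of all genes did, and 4 had an unadjusted p under 0.05 (Immt, Ppargc1a, Suclg1 and Twnk). DESeq2 called Immt and Ppargc1a, where it called 18.6% of all genes. With the mouse as a block 3 passed, all higher in tumour, beside 5.57% of all genes. Ppargc1a, a co-activator that drives mitochondrial biogenesis, had 29.0, 13 and 16.4 CPM in tumours 102, 217 and 224, against 9.21, 1.77 and 2.53 CPM in adjacent tissues. Every tumour was above every adjacent library (2.11 ± 0.69, adjusted p = 0.100, and 2.41 with the block, adjusted p = 0.0193). Immt, which shapes the folds of the inner membrane, had 91.6, 109 and 60.2 CPM in tumours, against 44.6, 32.5 and 36.6 CPM in adjacent tissues (1.20 ± 0.33, adjusted p = 0.0591, and 1.17 with the block, adjusted p = 0.0448). Phb, a prohibitin that scaffolds the inner membrane, rose by 0.87 with the block (adjusted p = 0.0305).

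The 3 subunits and carriers with other symbols (Cyc1, Cycs and Usmg5) had a median fold change of 0.59, led by Cyc1, cytochrome c1 of complex III, with 107, 119 and 108 CPM in tumours 102, 217 and 224 against 56.1, 87.9 and 78.9 CPM in adjacent tissues (0.59 ± 0.29, adjusted p = 0.276). The remaining lists had medians of 0.01 over 11 further complex I assembly factors, 0.66 over 6 complex III assembly factors, 0.27 over 24 complex IV assembly factors, 0.48 over 4 complex V assembly factors, 0.22 over 21 genes of mitochondrial DNA expression and biogenesis, 0.29 over 17 genes of the citric acid cycle and 0.43 over 18 genes of the mitochondrial membranes. The gene of smallest p in each was Acad9 (0.30 ± 0.31), Bcs1l (0.84 ± 0.38), Cox19 (0.83 ± 0.46), Tmem70 (0.50 ± 0.28), Ppargc1a, Suclg1 (0.70 ± 0.28) and Immt. Acad9 helps assemble complex I, Bcs1l inserts the Rieske protein into complex III, Cox19 serves copper delivery to complex IV, Tmem70 serves complex V, and Suclg1 is a subunit of succinyl-CoA ligase.

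In sorted AT2 cells no member was called different between knockout and wild-type mice, which with 3 libraries a group does not show that differences are small. The edgeR test called 0 of 105 members and 0.00% of all 14053 genes, and DESeq2 called 0 members and 1 gene. At an unadjusted p under 0.05 there were 3 members (Cox7a2l, Ndufab1 and Atp5mpl) and 2.47% of all genes. The fold change was negative for 87 of the 105 members, with medians of -0.15 over 93 nuclear and -0.21 over 12 mitochondrial members, against -0.01 over all genes. Without AT2 WT 177 these medians were -0.04 and 0.34, so the sign of the mitochondrial median rests on that library, and without AT2 WT 176 it was -0.63. After a correction for transcript length the medians were -0.07 over nuclear and -0.14 over mitochondrial members, against -0.01 over all genes.

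The nuclear members summed to 4268, 4290 and 4043 CPM in AT2 KO 175, 179 and 191, against 4797, 5292 and 4032 CPM in AT2 WT 176, 177 and 190. The wild-type libraries 176 and 177, those with relatively more counts on short transcripts, lay above the knockout libraries. AT2 WT 190, whose correlation of deviation with length was the highest of the AT2 libraries (0.37), lay just below all 3 knockout libraries. The means were 4200 ± 136 CPM in AT2 KO cells and 4707 ± 635 CPM in AT2 WT cells (SD, n = 3 each). The mitochondrial members summed to 30272, 30015 and 19231 CPM in AT2 KO cells, against 12603, 48122 and 32428 CPM in AT2 WT cells. The spread among the 3 wild-type libraries exceeded that among the knockout libraries and spanned all of them, and the ratio of mitochondrial to nuclear counts was 4.76 to 7.09 in AT2 KO cells and 2.63 to 9.09 in AT2 WT cells.

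**Figure D5:**
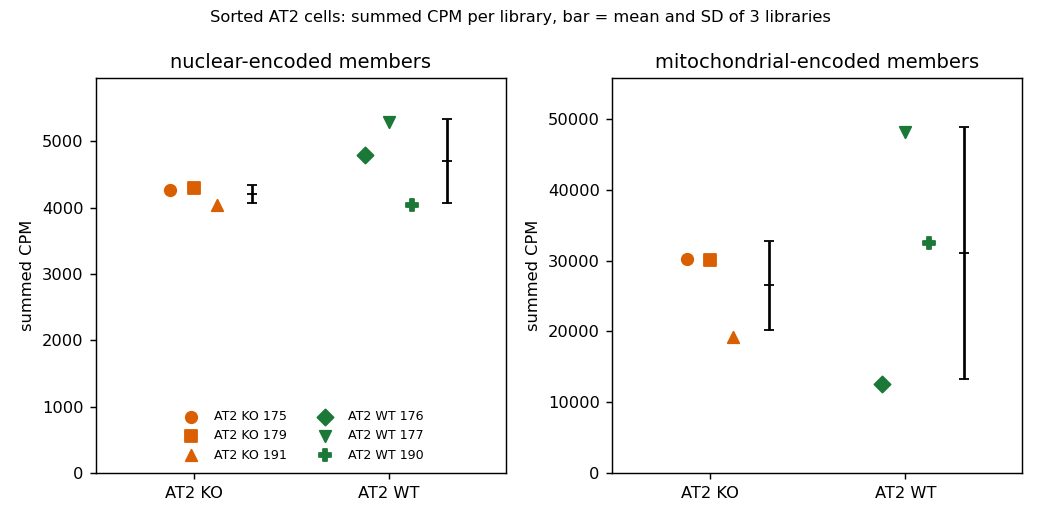
Summed CPM of the nuclear-encoded members, left, and the mitochondrial-encoded members, right, in AT2 KO and AT2 WT cells, 1 point per library, with bars for the mean and SD of 3 libraries. The AT2 KO points lie within the range of the AT2 WT points in both panels.

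Of the AT2 members with the smallest p in the lower direction, Cox7a2l had 135, 136 and 118 CPM in AT2 KO 175, 179 and 191, against 213, 200 and 129 CPM in AT2 WT 176, 177 and 190. AT2 WT 190 overlapped the knockout range, and the fold change was -0.48 ± 0.19 (adjusted p = 0.984, as for the 4 genes that follow). Ndufab1, the mitochondrial acyl carrier protein that is also a complex I subunit, had 17.2, 15.7 and 19.4 CPM in AT2 KO cells, against 21.1, 26.2 and 21.9 CPM in AT2 WT cells (-0.41 ± 0.17). Atp5mpl, a small membrane subunit of complex V, had 9.17, 8.78 and 7.90 CPM in AT2 KO cells, against 10.7, 15.4 and 10.6 CPM in AT2 WT cells. Its fold change was -0.50 ± 0.21. Ndufab1, Atp5mpl and Sdha were lower in every knockout library than in every wild-type library, and groups apart in this direction were found for 4.11% of all genes. Ndufv2, an iron-sulfur subunit, and Ndufb10, of the membrane arm, had fold changes of -0.46 ± 0.24 and -0.40 ± 0.21, and both were highest in AT2 WT 177.

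In the other direction the smallest p belonged to Cox6a2, the muscle isoform. It had 27.3, 31.0 and 29.8 CPM in AT2 KO 175, 179 and 191, against 24.2, 24.5 and 22.9 CPM in AT2 WT 176, 177 and 190. It was the only member higher in every knockout library than in every wild-type library, beside 4.20% of all genes, and did not pass the test (0.30 ± 0.14, adjusted p = 0.984). The other members of smallest p that were higher were Atp5g1 (0.22 ± 0.17), Cox8a (0.19 ± 0.15), Ndufa1 (0.26 ± 0.25) and mt-Nd5 (0.21 ± 0.51).

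Cox6a2 was detected in sorted AT2 cells of both genotypes, where heart muscle markers were low. These markers summed to 15.6 to 24.7 CPM in AT2 KO cells, with 7 of 16 at 0 in all 3 libraries, and to 14.6 to 19.9 CPM in AT2 WT cells, with 8 of 16 at 0. Mb, Ckmt2, Csrp3, Tnnc1, Sln and Myoz2 were at 0 in both. The partner Cox6a1 had 70.4 to 78.6 CPM in AT2 KO cells and 70.4 to 72.7 CPM in AT2 WT cells. In lung, by contrast, Cox6a2 was at 0.802 to 5.92 CPM in tumours, whose AT2 markers were high, and at 9.74 to 12.4 CPM in adjacent tissue. The tables were scaled apart, so this comparison of levels is a description.

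The other isoforms with lower values in tumour were scarce in AT2 cells. Ndufa4l2 had 0 counts in all 6 AT2 libraries, which allows up to 0.165 to 0.181 CPM per library. Cox4i2 had 3.38 to 3.79 CPM in AT2 KO cells and 2.12 to 4.71 CPM in AT2 WT cells, Cox7a1 0.234 to 0.823 CPM in AT2 KO cells and 0.402 to 1.26 CPM in AT2 WT cells, and Cox8b 0 to 3 counts in either. Ndufa4 had 44.9, 43.6 and 40.3 CPM in AT2 KO 175, 179 and 191, against 40.5, 75.5 and 44.5 CPM in AT2 WT 176, 177 and 190. Pericyte markers other than Cox4i2 and Ndufa4l2 summed to 0.482 to 0.714 CPM in AT2 KO cells and 0.401 to 1.21 CPM in AT2 WT cells, with Higd1b at 0 in all 6.

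The 8 lists of other mitochondrial genes had 0 of 102 tested genes past the edgeR test in AT2 cells, 0 by DESeq2 and 1 at an unadjusted p under 0.05, with medians between -0.19 for the membrane list and 0.04 for the complex V assembly list. That 1 gene was Twnk, the helicase that unwinds mitochondrial DNA, at 16, 14.1 and 13.6 CPM in AT2 KO 175, 179 and 191 against 18.8, 18.7 and 18.3 CPM in AT2 WT 176, 177 and 190 (-0.36 ± 0.16, adjusted p = 0.984). Ppargc1a, higher in tumours, had 13.3, 12.7 and 12.4 CPM in AT2 KO cells, against 8.29, 10.9 and 10.7 CPM in AT2 WT cells (0.36 ± 0.19, adjusted p = 0.984). It was higher in every knockout library than in every wild-type library, as were 4.20% of all genes. It is named because it passed in lung with the mouse as a block.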

How the data were processed

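RNA was measured in 12 libraries, 3 each of lung tumour, adjacent lung tissue, AT2 KO cells and AT2 WT cells. Per the labels' protocols, messenger RNA was purified with poly-T and prepared with a NEBNext Ultra kit, which does not mark strand. Per the submitters' processing notes, the genome was GRCm38 (mm10) and the tools included StringTie 1.3.3b, HISAT2, DESeq2 1.28.1, Trimmomatic 0.39 and FastQC. How reads were counted, by which annotation release, and where a read matching several places was put is not given in the sources used here. The authors deposited raw counts per Ensembl gene, 1 table for lung and 1 for AT2 cells.

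Identifiers were matched to GENCODE M21. In lung 1121 identifiers with 0.0921% of counts were unmatched, and in AT2 cells 123 with 0.0289%. Each table was filtered with filterByExpr, scaled by TMM and tested across all genes with the quasi-likelihood test of edgeR 4.0.16 in R 4.3.3, adjusted by Benjamini-Hochberg (threshold 0.05). DESeq2 1.42.0, other scalings, no filter, no mitochondrial genes, an offset for transcript length (of the principal transcript), leaving out each library, leaving out mouse 217 and a mouse block were alternatives, and the code was tested on simulated data. Tumour and adjacent samples with the same number come from the same mouse, and their deviations from the group means correlated at r = 0.358, 0.544 and 0.459 in mice 102, 217 and 224 over 19995 genes. Within-mouse ratios used a pseudocount of 0.5 CPM. Copies of the mitochondrial genes were found with blastn 2.17.0+, and figures and sums were made in Python 3.11.15.

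Named genes were all 13 mitochondrial members, the tissue isoform pairs, members highest or lowest per kilobase in a complex, and in each comparison those past the threshold or, where fewer than 5 passed in a direction, the 5 of smallest p with a mean of at least 5 CPM. Members called under an alternative, members whose groups do not overlap and Ppargc1a in AT2 cells were named after their values were seen. The members and gene lists were chosen with earlier results of these data known. Replicates within a group are separate mice, so p-values measure the spread among 3 animals a group. In lung both groups come from the same 3 mice, a pairing that the group-only fit ignores and the mouse block uses. Floors for a count of 0 cover counting error only.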

Additional observations from a re-analysis of the deposited data

How the results depend on the processing

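The group-only edgeR fit called 0 members higher and 0 lower in tumour. Members called higher numbered 1 with the transcript-length offset and 1 with DESeq2 (Cox7a2l in both), against 4.54% and 5.73% of all genes. With the mouse number as a replicate block there were 5 (5.57% of all genes), and 5 with the block and the length offset together (7.31%), an alternative chosen after seeing the data (the same 5 genes). Members called lower numbered 2 with library totals alone (Cox8b and Ndufa4l2), 1 with the length offset (Cox8b), 3 with DESeq2 (Cox6a2, Cox8b and Ndufa4l2) and 1 without both libraries of mouse 217 (Cox6a2), against 9.20%, 7.52%, 12.9% and 3.40% of all genes. Leaving out 1 library at a time gave 0 to 2, the 2 being Cox6a2 and Cox8b without tumour 217 (6.57% of all genes), and the block gave 0. The cause of these differences was not tested. Of 34 named lung members, 17 changed the sign of an uncalled fold change in some alternative, 16 of them without tumour 217 and 6 with library totals, which moved the median of all genes to -0.18.

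The summed log2 ratios of tumour over adjacent ranged over single left-out libraries from -0.04 to 0.97 for mitochondrial and from -0.02 to 0.85 for nuclear members. Those of AT2 KO over AT2 WT ranged from -0.60 to 0.23 and from -0.26 to -0.07. Sums were not recomputed with DESeq2 or the block. In AT2 cells each alternative run called 0 members. No paired analysis was possible because the AT2 groups share no mouse number. Depth limits Cox8b and Cox7a1 in AT2 cells, which had few counts. Counts of mt-Atp8 were also few there, but it lies inside the copied span, and the cause was not tested.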
